A study of Mus musculus with 22 samples.

Results

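The 41 genes described here form the ATF4 and amino acid stress response: the transcription factor Atf4, its partner and relay factors, and the enzymes, transporters and tRNA synthetases that supply amino acids. They were chosen as a list of gene symbols in the Ribo-Seq tables and joined to the RNA-Seq tables by Ensembl ID. All 41 were found, out of 20396 genes present in both kinds of table, 22623 in the RNA-Seq tables and 23081 in the Ribo-Seq tables.

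The study asked what the RNA-binding proteins Msi1 and Msi2 (Musashi) do to mRNA levels and translation in mouse neural stem cells (NSCs) cultured from embryonic cortex. Inducible cells carried the R26-m2rTTA transactivator with an Msi1 or Msi2 cDNA under a tetO promoter in the Col1A1 locus (tetO-Msi1, tetO-Msi2), and the KH2 control carried the transactivator with no Msi cDNA, so that doxycycline (Dox) reached control and inducible cells alike. These lines were grown for 72 h with 1 µg/ml Dox or without it, with all 3 lines sampled at E12.5 and, at E13.5, tetO-Msi1 in both states and KH2 untreated. Line C1 had floxed Msi1 and Msi2 and no Cre, and line C4 had the same floxed genes with a tamoxifen-inducible Cre; both came from E12.5 and were followed for 48 h with or without 4-hydroxytamoxifen (4-OHT), which C1 therefore also received. Each condition was 1 RNA-Seq library, except that the untreated E13.5 tetO-Msi1 culture was sequenced as 2 technical replicates, which were summed. Ribo-Seq, which counts fragments protected by ribosomes, was made at E12.5 from the KH2, tetO-Msi1, C1 and C4 lines. Lines stand in for replicates throughout, and p-values measure the spread between these lines and stages only.

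When amino acids run short or unfolded proteins build up, eIF2 kinases phosphorylate the initiation factor eIF2, general initiation slows, and the Atf4 reading frame, which sits behind upstream open reading frames (uORFs), is translated more. ATF4 protein then activates genes for amino acid synthesis, uptake and tRNA charging, together with feedback genes such as Trib3 and Ppp1r15a. It binds DNA as a dimer with C/EBP proteins at composite elements, of which TGATGNAA is a common core, and cultured neural cells draw on the same genes for serine, cystine and asparagine supply.

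The core TGATGNAA was searched on both strands in RefSeq promoter windows of build GRCm38.p6, from 250 bases before to 50 bases after the start. A window was found for 35 of the 41 genes, and 12 of those 35 (34.3%) held the letters, against 4.51% of 27025 genes with a window. The 12 were Aars, Asns, Chac1, Gars, Got1, Herpud1, Iars, Nupr1, Pycr1, Slc7a11, Trib3 and Vldlr. The lines below show the match for members on which the results turn, 5′ to 3′ on the strand that reads TGATGNAA, with the match in capitals and the region in GRCm38.p6.
Trib3 (chr2:152344028-152344057): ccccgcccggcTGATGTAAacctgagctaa
Chac1 (chr2:119351038-119351067): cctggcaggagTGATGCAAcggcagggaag
Nupr1 (chr7:126625562-126625591): caagccctgtcTGATGCAAtctggcccttt
Slc7a11, first match (chr3:50443642-50443671): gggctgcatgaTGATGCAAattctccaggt
Slc7a11, second match (chr3:50443661-50443690): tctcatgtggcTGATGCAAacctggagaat
Asns (chr6:7693214-7693243): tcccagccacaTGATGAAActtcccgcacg
Gars (chr6:55037960-55037989): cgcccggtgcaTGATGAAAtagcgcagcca
Vldlr (chr19:27216809-27216838): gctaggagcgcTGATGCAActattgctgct
The match lay before the start in each of these except Trib3, where it began at position 15 from the start, counted along the gene strand. In Slc7a11 the windows held the letters on both strands, beginning 47 and 66 bases before the start when counted along the gene strand. A match is a description of the letters and not a binding site.

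RNA-Seq libraries held 7889966 to 60791605 counted reads and Ribo-Seq libraries 657288 to 6381242. Levels of mRNA are given below as scaled RPKM, the deposited RPKM brought to a common scale between libraries by the trimmed mean of M-values (TMM). Of the labelled cell type, 7 neural stem markers summed to 11923 to 16959 scaled RPKM, most of it Vim and Fabp7. Nes was at 127 and 155 in untreated KH2 and tetO-Msi1 cells at E12.5, at 288 and 365 at E13.5 and at 237 in tetO-Msi2 cells, and Hes5 was at 21.8 to 32.5 in C1 and C4 against 524 to 829 elsewhere. In contrast, 3 microglial markers summed to at most 0.353 and 3 endothelial ones to at most 1.06. Gfap, an astrocyte gene, was at 60.0 and 92.8 in untreated E13.5 cells, at 5.88 and 5.39 in their E12.5 counterparts, at 0.0836 in untreated tetO-Msi2 cells and at 184 and 473 in C1 and C4, while the sum of 4 astrocyte markers, led by Aldh1l1, was 810.3 and 784 at E13.5 and 809 and 878 at E12.5. The part of these markers in the results below was not tested. The induced genes followed their labels: Msi1 was at 129 without and 701 with Dox in tetO-Msi1 cells of E12.5, at 182 and 699 in those of E13.5 and at 131 in both states of KH2 cells, and Msi2 was at 153 and 824 in tetO-Msi2 cells. Msi2 in C4 was at 123 without 4-OHT and differed by -3.19 on the log2 scale with it, whereas Msi1 read 29.5 and 28.1, over exons that may lie outside the deleted part. The E12.5 libraries of the tetO and KH2 lines placed 14.9% to 15.8% of the reads behind their RPKM on genes and all other RNA-Seq libraries 28.2% to 34.1%, so that stage, and the floxed lines against the tetO lines, cannot be told apart from the sequencing experiment. In Ribo-Seq the counted share was 32.1% in untreated KH2 and 28.5% in untreated C1, and 7.46% to 12.3% in the other libraries. Treated and untreated Ribo-Seq libraries of KH2 and of C1 were thus unlike in it.

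Over the 13 RNA-Seq conditions, the 41 genes had their highest levels in the untreated E13.5 cells. Their median level was 275 scaled RPKM in untreated KH2 cells and 217 in untreated tetO-Msi1 cells of that stage. It was 146 and 122 in tetO-Msi2 cells at E12.5 with and without Dox, and 134 in the Dox-treated E13.5 culture of tetO-Msi1. The other 8 libraries, all of E12.5 (KH2, tetO-Msi1, C1, C4), lay between 59.2 and 77.5. Fewer cells of a type and less RNA per cell cannot be told apart in such bulk samples.

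**Figure D1:**
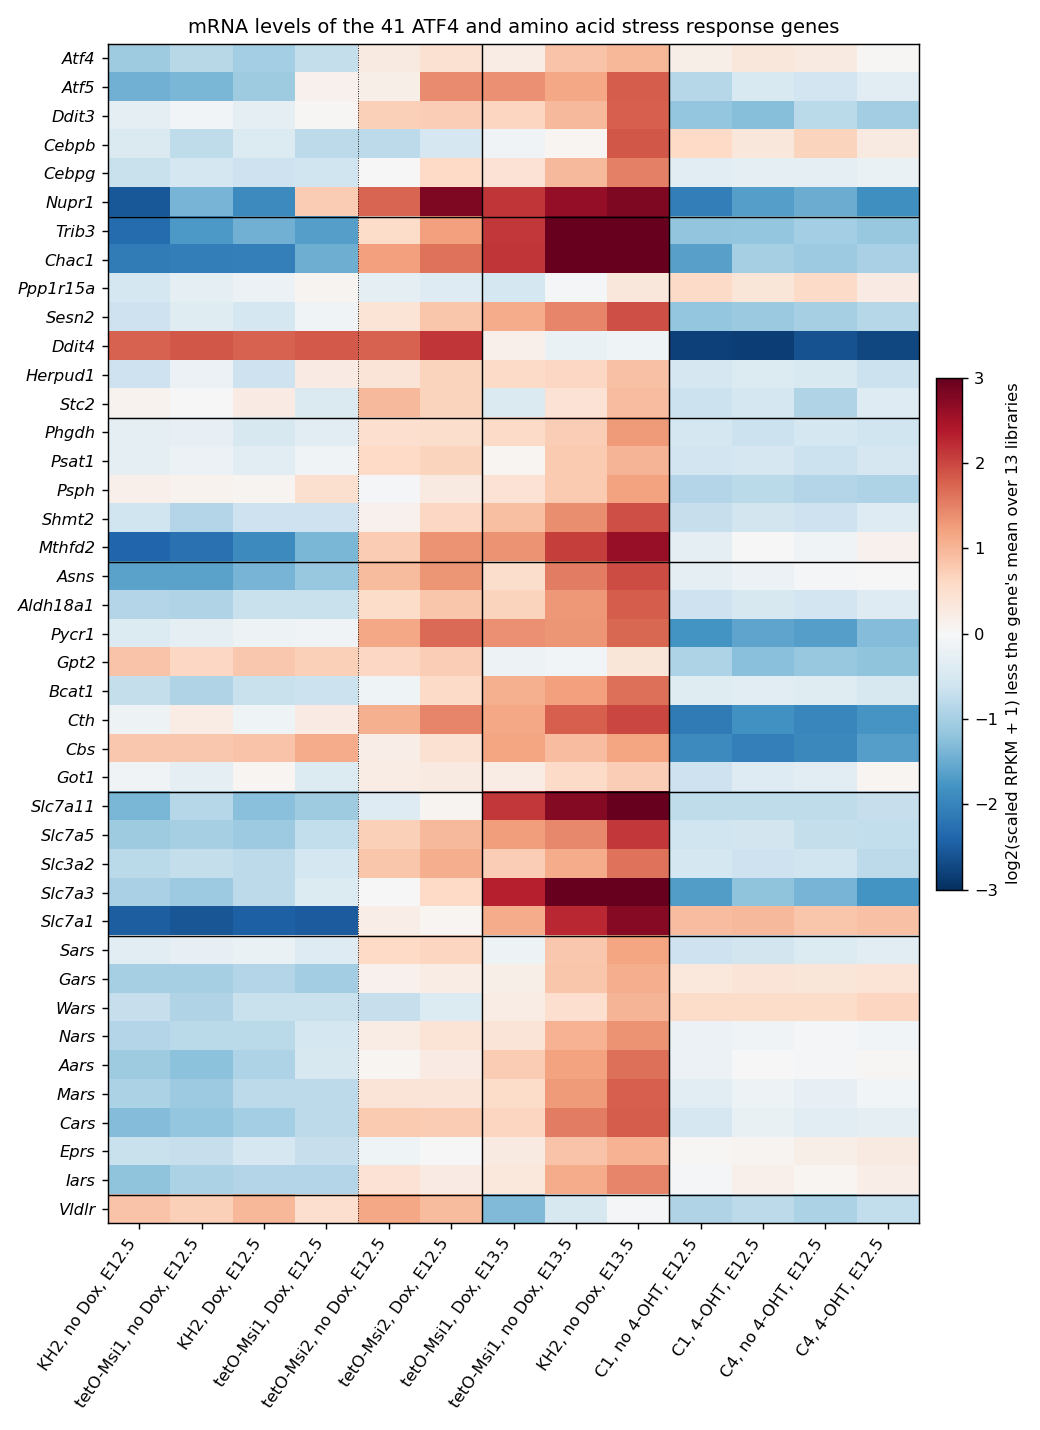
Heat map of the 41 genes (rows, by role) in 13 RNA-Seq conditions (columns); the colour is the log2 of scaled RPKM plus 1 less the gene's mean over the 13 conditions, capped at -3 and 3. The E13.5 columns and the tetO-Msi2 columns are the high ones for most genes. Ddit4, Gpt2 and Vldlr are lower in untreated KH2 and tetO-Msi1 cells at E13.5 than in the same lines at E12.5.

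The largest contrast was that of stage. In untreated KH2 and tetO-Msi1 cells, 36 of the 41 mRNAs were higher and 3 lower at E13.5 than at E12.5, with line as a block in edgeR's quasi-likelihood test, when 50.8% of all 11893 genes tested were called in either direction and 25.6% were called higher. The median log2 change was 1.96 over the members and 0.01 over all genes. All 6 regulators, 5 serine and one-carbon enzymes, 5 transporters and 9 tRNA synthetases rose, as did 5 of 7 effectors and 6 of the 8 other amino acid enzymes. Ddit4, Gpt2 and Vldlr fell, and Ppp1r15a (0.53) and Cbs (0.23) were not called. Changes of all genes between the stages were centred near 0 by the TMM scaling, whereas the median gene's deposited RPKM was higher at E13.5 by 1.04 (KH2) and 0.89 (tetO-Msi1) on the log2 scale, so all stage values are relative to that shift.

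Among the regulators, Atf4 (ENSMUSG00000042406) was at 845 scaled RPKM in KH2 and 767 in tetO-Msi1 cells at E13.5, against 203 and 235 at E12.5. The groups did not overlap, and the log2 change was 1.86 (SE 0.12, 2 libraries a stage). Atf5, a related factor that is also behind uORFs, stood at 366 and 231 at E13.5 and at 37.7 and 39.6 at E12.5, a change of 2.89 (SE 0.17, adjusted p = 6.4e-07). Ddit3, which encodes the pro-apoptotic factor CHOP, was at 163 and 93.0 against 38.6 and 44.0, and Ddit3 and Mars overlap by 68 bases at their 3′ ends on opposite strands, a stretch that unstranded counting could not assign. Nupr1, a small stress-induced chromatin protein, was the regulator with the steepest difference, at 98.3 and 87.7 against 1.42 and 4.37, or 4.84 on the log2 scale (SE 0.35, adjusted p = 2.4e-06), with 3 reads behind the lowest value. The C/EBP genes Cebpb and Cebpg, which encode ATF4 dimer partners, rose by 1.62 (SE 0.29) and 1.84 (SE 0.17), and Cebpb was uneven at E13.5, with 56.0 in KH2 and 15.2 in tetO-Msi1 cells. Cebpb overlaps Tmem189 by 908 bases on the opposite strand. Ppp1r15a and Slc7a5 likewise overlap Tulp2 by 717 and Gm20388 by 26543 bases.

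The effectors held both extremes of the list. Trib3, a pseudokinase that feeds back on ATF4, was at 122 and 56.9 scaled RPKM at E13.5 and at 0.18 and 0.75 at E12.5, with 1 and 7 reads in the E12.5 libraries. Its fitted log2 change was 7.21 (SE 0.36, adjusted p = 1.7e-07), a size that depends on those few reads. Chac1, which degrades glutathione, was at 253 and 146 against 2.51 and 2.56, a change of 6.18 (SE 0.20, adjusted p = 9.0e-09). Both genes were close to silent at E12.5 and well expressed at E13.5 in each line. Sesn2, a leucine-binding inhibitor of mTORC1, was at 455 and 332 against 77.1 and 92.5, a rise of 2.18 (SE 0.16). Ddit4, another mTORC1 inhibitor, took the opposite course, at 621 and 587 against 2329.6 and 2474, and fell by 2.01 (SE 0.11). Herpud1, an ER degradation component, rose by 1.14, Stc2, a secreted glycoprotein, by 0.63, and Ppp1r15a, the eIF2 phosphatase subunit GADD34, was at 33.8 and 26.0 against 18.1 and 22.0 (0.53, SE 0.24, adjusted p = 0.087).

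All 5 serine and one-carbon enzymes rose. Mthfd2, the mitochondrial folate enzyme, was at 442 and 304 scaled RPKM at E13.5 against 12.9 and 14.3 at E12.5, a change of 4.71 (SE 0.18, adjusted p = 2.4e-08). The serine synthesis enzymes changed less: Psat1 was at 1136 and 973 against 458 and 500, a change of 1.12 (SE 0.12). Phgdh, the first enzyme of that pathway, was at 209.6 and 142 against 70.6 and 71.3, a change of 1.26 (SE 0.14). Psph rose by 0.86 (SE 0.13) and Shmt2, which converts serine to glycine in mitochondria, by 2.39 (SE 0.11). Among the other amino acid enzymes, Asns, the asparagine synthetase, stood at 705 and 531 against 59.1 and 59.2, and rose by 3.35 (SE 0.13, adjusted p = 3.2e-08). Aldh18a1 and Pycr1 of proline synthesis rose by 2.46 and 1.90, the branched-chain aminotransferase Bcat1 by 2.28, Cth of cysteine synthesis by 1.92 and Got1 by 0.84. Gpt2, the mitochondrial alanine aminotransferase, was at 508 and 374 against 717 and 607, and fell by 0.61 (SE 0.11).

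Transporters had the highest median of any role, 4.21 on the log2 scale. Slc7a1, the cationic amino acid transporter CAT1, was at 252 and 182 scaled RPKM at E13.5 against 5.96 and 5.49 at E12.5, a change of 5.20 (SE 0.15, adjusted p = 4.6e-09). Slc7a3, a second cationic transporter, was at 59.9 and 48.6 against 2.08 and 1.84, a change of 4.76 (SE 0.16, adjusted p = 9.8e-09). Slc7a11, the cystine/glutamate antiporter that carries the motif on both promoter strands, was at 85.9 and 71.7 against 3.16 and 4.99, a change of 4.21 (SE 0.20, adjusted p = 1.4e-07). These 3 were near the bottom of the range in E12.5 cells of both lines. Slc7a5 and its heavy chain Slc3a2, which take up large neutral amino acids, started from 136 and 272 in KH2 cells and rose by 2.80 (SE 0.17, adjusted p = 6.9e-07) and 2.12 (SE 0.15). The 9 tRNA synthetases rose by 1.26 (Sars) to 2.91 (Cars, SE 0.13, adjusted p = 9.8e-08), and Aars, second among them, by 2.56 (SE 0.12, adjusted p = 1.0e-07). Vldlr, a lipoprotein and reelin receptor, was at 108 and 79.0 against 201 and 182 and fell by 1.06 (SE 0.11), although its promoter window also held TGATGNAA.

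**Figure D2:**
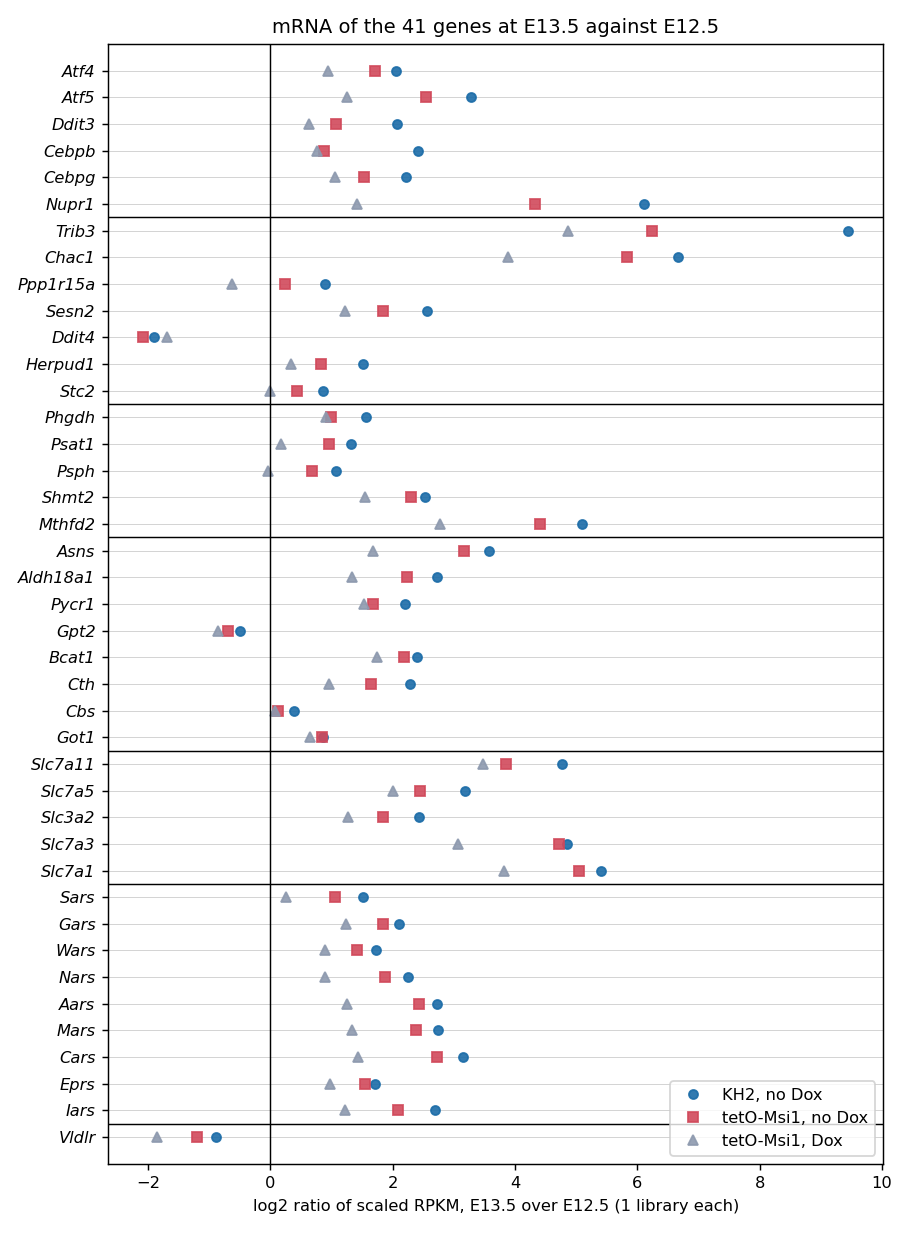
Each row is 1 of the 41 genes and each point the log2 ratio of scaled RPKM between the stages in 1 pair of libraries (KH2 no Dox, tetO-Msi1 no Dox, tetO-Msi1 with Dox). Pairs with 5 or fewer reads in a library are drawn as well, such as Trib3 and Nupr1 in KH2 cells. Most points lie to the right of 0, with Ddit4 and Vldlr to the left in each pair shown.

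Neighbouring pathways had lower median changes at E13.5 than the members, and their counts stand beside the 50.8% of all genes that were called. Of 14 tested eIF2 kinase and eIF2 pathway genes, 8 rose and 2 fell, with a median of 0.41 and a range of -0.77 to 0.80. Among 15 genes of the ER unfolded protein response, 6 rose and 2 fell, with a median of 0.15; Dnajb9 fell by 1.65, and Hyou1 and Dnajb11 rose by 1.09 and 1.02. Of the 11 cytosolic tRNA synthetases that are not members, 9 rose and Qars fell, with a median of 0.80, led by Tars (2.27), Yars (2.24) and Vars (1.56). Among 8 mitochondrial stress genes 6 rose and 1 fell, with the secreted factor Gdf15 at 3.62 and the chaperone Hspa9 at 1.53.

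The members were also higher at E13.5 in the Dox-treated pair, which shares no library with that test. There 21 of 40 tetO-Msi1 mRNAs with more than 5 reads in both libraries were at least 2-fold higher, against 8.44% of genes, with a member median of 1.13. The untreated pairs gave 32 of 39 in KH2 (8.36% of genes, member median 2.26) and 29 of 41 in tetO-Msi1 cells (8.29% of genes, median 1.84). The members that were called did not differ when the counts were rescaled by median of ratios, tested with DESeq2, left unfiltered or fitted without the line block.

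By the member median, untreated tetO-Msi2 cells at E12.5 stood between the stages. Of 39 members with more than 5 reads, 22 were at least 2-fold higher than in untreated E12.5 KH2 cells, against 2.3% of genes. None was 2-fold lower, against 3.61% of genes, and the member median was 1.05. With Dox in both lines 29 of 41 were at least 2-fold higher, against 2.29% of genes (median 1.24). By the same measure no member was 2-fold higher in untreated tetO-Msi1 than in KH2 cells, against 1.18% of genes. The member median there was 0.03. These are single libraries of 1 line, so no test was made, and the line cannot be told apart from its culture.

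Nupr1 was at 47.0 scaled RPKM in untreated tetO-Msi2 cells and 98.3 with Dox, next to 1.42 and 2.79 in KH2 cells. Chac1 was at 34.3 and 45.5, against 2.51 and 2.62 in KH2 cells. Trib3 was at 7.52 and 12.6, against 0.18 and 1.14. For these 3 the tetO-Msi2 libraries lay above both the KH2 and the tetO-Msi1 libraries of E12.5. Asns was at 351 and 456, against 59.1 and 68.3, and Mthfd2 at 122 and 181, against 12.9 and 18.3. Slc7a1 was at 43.4 and 39.3, against 5.96 and 5.99, and Atf4 itself at 508 and 579, against 203 and 208. Slc7a11 (7.24 and 10.4, against 3.16 and 3.54) and Slc7a3 (5.15 and 8.24, against 2.08 and 2.51) were higher as well, and Cebpb was at 8.06 and 9.95, below 10.5 and 10.7. Ddit4 (2319 and 2984, against 2329.6 and 2313) and Vldlr (250 and 216, against 201 and 221) had no difference in tetO-Msi2 cells of the size they had at E13.5.

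The order of the genes was alike in both contrasts. Over 41 members, the log2 change with stage in untreated tetO-Msi1 cells and the log2 ratio of tetO-Msi2 to KH2 cells with Dox, which have no library in common, had a Pearson r of 0.83 and a Spearman rho of 0.86, and 35 members were above 0 in both. Over all 12140 genes the same pair had r = 0.19 and rho = 0.16, with 28.3% of genes above 0 in both. With the stage change of Dox-treated tetO-Msi1 cells in place of the untreated one, r was 0.68 and rho 0.84 over 40 members, and 0.17 and 0.12 over all genes. These are correlations across genes, which are not independent replicates and share exon length and base composition between the contrasts. The E12.5 divisors of the first pair, tetO-Msi1 without Dox and KH2 with Dox, had like member medians (59.2 and 68.3 scaled RPKM). A gene low in both thus has a small divisor in both contrasts.

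**Figure D3:**
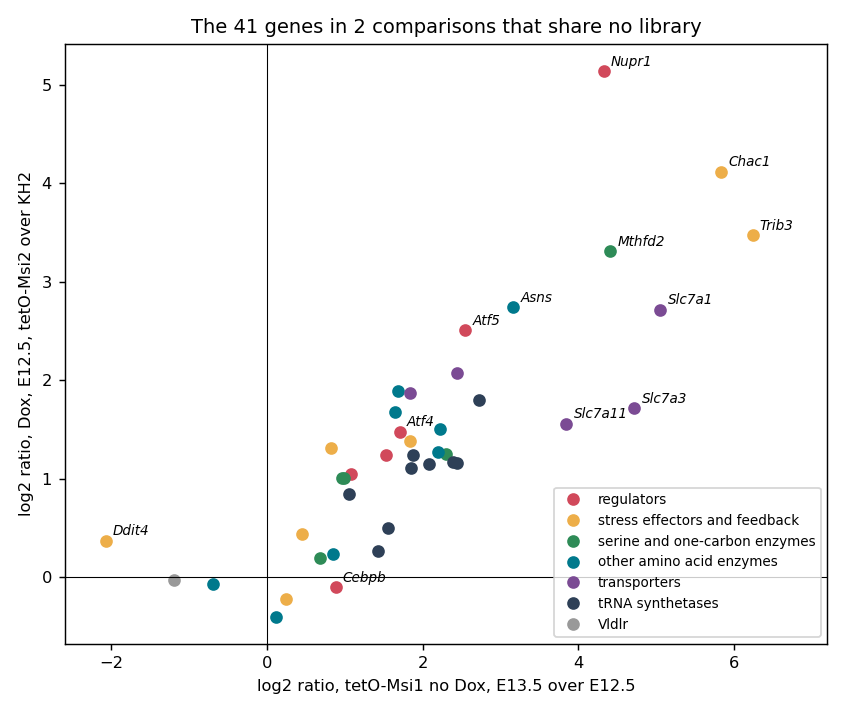
Each point is 1 of the 41 genes, coloured by role; the horizontal axis is the E13.5 over E12.5 log2 ratio in tetO-Msi1 cells without Dox, the vertical axis the log2 ratio of Dox-treated tetO-Msi2 over KH2 cells at E12.5. Of the points, 35 lie above 0 on both axes, and Ddit4 lies left of 0 with a ratio near 0.37 on the vertical axis.

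Dox was tested over 4 pairs of libraries (KH2, tetO-Msi1 and tetO-Msi2 at E12.5, tetO-Msi1 at E13.5) with each pair as a block. One member, Atf5, was called, when 0.51% of 12167 genes were: it rose by 0.84 on the log2 scale (SE 0.17, adjusted p = 0.042), in 4 of 4 pairs. Its level went from 37.7 to 49.2 scaled RPKM in KH2 cells, from 39.6 to 113 in tetO-Msi1 and from 117 to 279 in tetO-Msi2 cells at E12.5, and from 231 to 270 in tetO-Msi1 cells at E13.5. The rise was thus present in the control line, and the deposited RPKM ratio there was 0.34 (95% counting interval 0.17 to 0.52), against 1.53 (1.37 to 1.68) and 1.28 (1.19 to 1.38) in the inducible lines at E12.5 and 0.31 (0.27 to 0.35) at E13.5. Atf5 overlaps Nup62 by 571 bases on the opposite strand. The call was lost with DESeq2, without the pair block, and without the E12.5 pair of tetO-Msi1 or of tetO-Msi2, with which 0 members were called each time. Over all genes those fits called 191 with DESeq2, 0 without the block, 0 without that tetO-Msi1 pair and 8 without that tetO-Msi2 pair.

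Whether Msi induction changed the members beyond Dox itself was asked by comparing the 3 inducible pairs with the KH2 pair. With 1 control pair, edgeR called 0 members and 0% of 12167 genes, with 3 members and 584 genes at an unadjusted p under 0.05; DESeq2 also called 0 genes, with 296 at that p. In the E12.5 pairs alone, a choice made after the data were seen, Atf5 was higher beyond the KH2 change by 1.00 (SE 0.17, adjusted p = 0.014). That fit called 0.167% of 11969 genes and still rested on 1 KH2 pair.

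The 4 pairs did not go one way. With Dox the member median of the deposited log2 ratio was 0.03 in KH2 cells, 0.23 in tetO-Msi1 and 0.30 in tetO-Msi2 cells at E12.5, with 24 of 39, 30 of 40 and 36 of 41 members above 0, and -0.47 in tetO-Msi1 cells at E13.5, with 35 of 41 below 0. All genes had medians of -0.04, -0.01, 0.03 and 0.09 in these pairs. Of all genes, 40.2%, 49.0% and 54.3% were above 0 in the E12.5 pairs, and 39.7% were below 0 at E13.5. The difference between the E13.5 pair and the 3 E12.5 pairs was then tested over the same 8 libraries, a fit prompted by these values and so a description of them: 18 members had a lower change at E13.5 and 0 a higher one, when 0.814% of genes were called in either direction and 0.485%, or 59 genes, lower. The median difference was -0.77 over the members and -0.01 over all genes. It rests on 1 pair at E13.5, which has no spread of its own and is assumed to vary like the E12.5 pairs, and where no KH2 cells with Dox were sequenced, so Msi1 and Dox cannot be told apart there, and its untreated library is the one that entered the stage contrast.

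Of the 9 tRNA synthetases, 7 were among the 18 (Cars, Sars, Mars, Iars, Nars, Gars and Eprs). So were Slc7a1 and Slc7a3 of the transporters, Asns and Aldh18a1 of the other amino acid enzymes, Mthfd2 and Psat1, Trib3 and Chac1, Atf4 and Nupr1, and Vldlr. Asns, with the lowest adjusted p, went from 531 to 264 scaled RPKM with Dox at E13.5, and from 59.1 to 68.3, 59.2 to 82.5 and 351 to 456 in the KH2, tetO-Msi1 and tetO-Msi2 pairs at E12.5, a difference of -1.38 (SE 0.15, adjusted p = 0.0013). Trib3 stood at 56.9 and 24.2 at E13.5 and at 7.52 and 12.6 in tetO-Msi2 cells, with 1 to 11 reads in the other 4 libraries, a difference of -2.06 (SE 0.39, adjusted p = 0.023). Both were lower with Dox in the E13.5 pair and higher in the tetO-Msi2 pair. Nupr1 stood at 87.7 and 62.0 at E13.5, and at 1.42 and 2.79, 4.37 and 23.2, and 47.0 and 98.3 in the KH2, tetO-Msi1 and tetO-Msi2 pairs of E12.5, a difference of -1.89 (SE 0.37, adjusted p = 0.027). Chac1 stood at 146 and 65.1 at E13.5 and at 34.3 and 45.5 in tetO-Msi2 cells, a difference of -1.59 (SE 0.24, adjusted p = 0.0061). Slc7a1 stood at 182 and 81.9 at E13.5 and at 5.96 and 5.99, 5.49 and 5.81, and 43.4 and 39.3 in the E12.5 pairs, a difference of -1.11 (SE 0.17, adjusted p = 0.0058). Atf4 stood at 767 without and 495 with Dox at E13.5 and at 203 and 208, 235 and 258, and 508 and 579 in the E12.5 pairs, a difference of -0.77 (SE 0.14, adjusted p = 0.019). Of the related lists, 3 of 11 other tRNA synthetases (Lars, Tars and Yars), 1 of 14 eIF2 pathway genes (Eif2s2), 1 of 8 mitochondrial stress genes (Hspa9) and 0 of 15 ER unfolded protein response genes were lower by the same test; of the latter, 1 had an unadjusted p under 0.05.

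**Figure D4:**
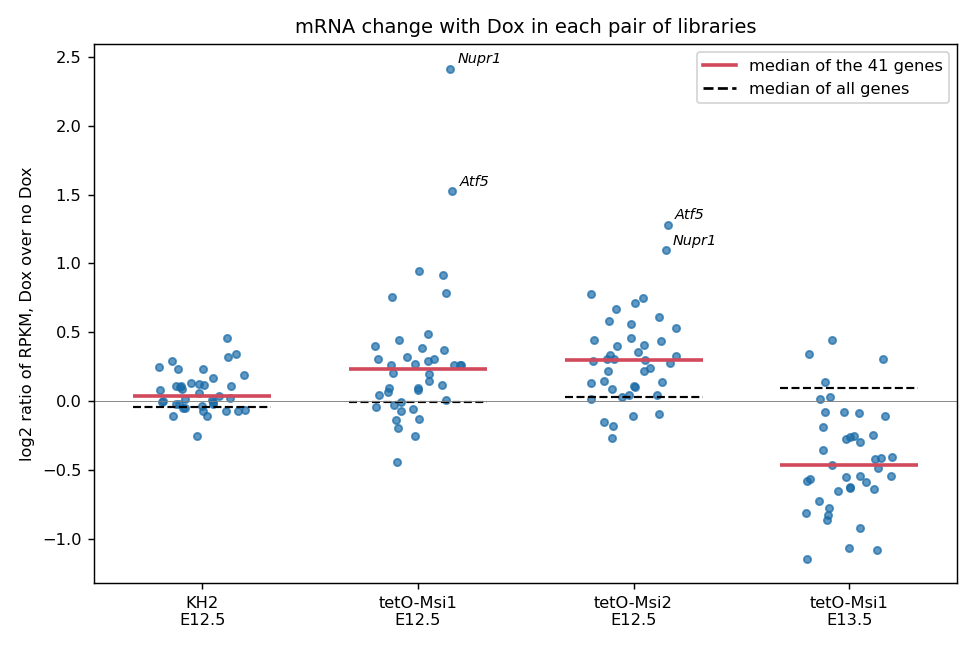
Deposited log2 RPKM ratio, Dox over no Dox, of the members with more than 5 reads in both libraries (points) in 4 pairs; the red line is the member median and the dashed line the median of all genes. The member median is 0.03, 0.23 and 0.30 in the E12.5 pairs and -0.47 in the E13.5 pair.

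In the floxed lines no member passed the test with 4-OHT. Over the C1 and C4 pairs edgeR called 0 of 39 members tested, when 5.5% of 11626 genes were called; 12 of the 39 had an unadjusted p under 0.05, as did 19.6% of all genes, and DESeq2 also called 0. The estimates ran from -0.34 to 0.44 on the log2 scale with a median of 0.06. Atf5 was nearest to the threshold, at 56.6 and 75.1 scaled RPKM in C1 and 69.4 and 81.9 in C4 without and with 4-OHT (0.32, SE 0.08, adjusted p = 0.052). Atf4 was at 480 and 533 in C1 and at 509 and 433 in C4. Nupr1 and Trib3 did not pass the filter on low counts and stood at 2.36 to 4.04 and 1.54 to 1.84 over the 4 libraries. Since C1 lacks Cre, the test asks for a change with 4-OHT common to both lines and not for an effect of Msi loss, which rests on the C4 pair alone.

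The untreated floxed lines (C1, C4) were also set against the untreated tetO and KH2 lines (KH2, tetO-Msi1, tetO-Msi2), all of E12.5. With 66.3% of 12211 genes called, 4 of 39 members were higher and 11 lower in the floxed lines. Ddit4 was at 96.0 and 110.4 scaled RPKM in C1 and C4 against 2319 to 2474 in the other 3 lines, and was lower by 4.53 (SE 0.13, adjusted p = 9.4e-06). Cth was at 1.70 and 2.05 against 9.62 to 23.9 (-3.04, SE 0.44, adjusted p = 0.0011), and Cbs, which acts before it in cysteine synthesis, at 15.0 and 14.7 against 68.1 to 105 (-2.65, SE 0.22, adjusted p = 0.00012). Pycr1, Vldlr, Gpt2, Slc7a3, Stc2, Ddit3, Sesn2 and Psph were the others that were lower, by 2.22 down to 0.96 on the log2 scale. Cebpb (1.38), Wars (1.32), Ppp1r15a (0.94) and Eprs (0.58) were higher. The member median was -0.36, and without tetO-Msi2, whose members are high, it was 0.30, with 32 members called, 19 higher and 13 lower, when 70.0% of all genes were called. Then Slc7a1 (3.60), Mthfd2 (2.18), Asns (1.45) and Atf4 (1.17) were higher in the floxed lines, so for these genes the answer depends on which tetO line is the reference.

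Translational efficiency (TE) was the Ribo-Seq RPKM over the RNA-Seq RPKM, on a log2 scale less the median of the library pair, and was described for genes with more than 5 reads in both. Atf4 had few footprints for its mRNA. In untreated cells its centred log2 TE was -1.67 in KH2, -1.50 in tetO-Msi1, -4.02 in C1 and -3.81 in C4, a mean of -2.75 ± 1.35 (SD, n = 4). In C1 that stood on 103 footprints and 21622 mRNA reads, and over the 4 untreated lines 0.022% to 4.52% of genes had a lower TE. With Dox or 4-OHT the values were -1.63, -0.82, -3.51 and -2.93, so the floxed lines lay below the tetO and KH2 lines in both states. The smallest p that 2 lines against 2 allow in an exact permutation test is above 0.05, and this split was not tested.

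Atf5 was also lower in the floxed lines, at 0.13 in KH2, -0.02 in tetO-Msi1, -3.49 in C1 and -2.15 in C4 cells without treatment, on 16 to 42 footprints. Its mRNA was at 37.7 and 39.6 scaled RPKM in the former and 56.6 and 69.4 in the latter, so that mRNA and TE did not follow each other. Ppp1r15a, also a uORF gene, gave a value in only 2 untreated lines, C1 (-2.79) and tetO-Msi1 (-0.61). KH2 and C4 fell below the filter, with 4 and 1 footprints on 68 and 529 mRNA reads. Slc7a1, another member known for a uORF, had by contrast a high TE, 1.27 ± 0.33 (SD, n = 4), at 10 to 889 footprints. Its mRNA and footprints were counted over different exon sets, as were those of Ddit3. Ddit3 passed the filter in 1 untreated line, tetO-Msi1 (1.82, on 27 footprints and 395 mRNA reads). KH2, C1 and C4 had 3, 4 and 0 footprints on 213, 495 and 508 mRNA reads. The filter thus kept Ddit3 only where it had the most footprints, and 1.82 does not describe the other lines. Nupr1 and Trib3 had at most 1 footprint in any untreated library.

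Among the enzymes, Phgdh had the highest mean TE of the members read in all 4 untreated lines, 2.52 ± 0.23 (SD, n = 4), above 95.6% to 97.2% of genes, although its mRNA and footprints were counted over different exon sets. Psat1 was at 0.51 ± 0.24, Asns at 0.36 ± 0.13 and Ddit4 at 0.22 ± 0.24 (SD, n = 4 each). The exon sets differed for Psat1 and Asns as well, and Asns had 8 footprints in KH2. The synthetases lay from -0.60 ± 0.51 for Sars to 0.35 ± 0.19 for Aars, whose exon sets also differed, among those with n = 4. Sesn2 was at -0.73 ± 0.58. The mean over the 4 untreated lines of the member median was 0.16, so the members as a list lay near the median gene. For 17 of the 41, including Atf4, Atf5 and Ppp1r15a, both assays covered the same exons.

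**Figure D5:**
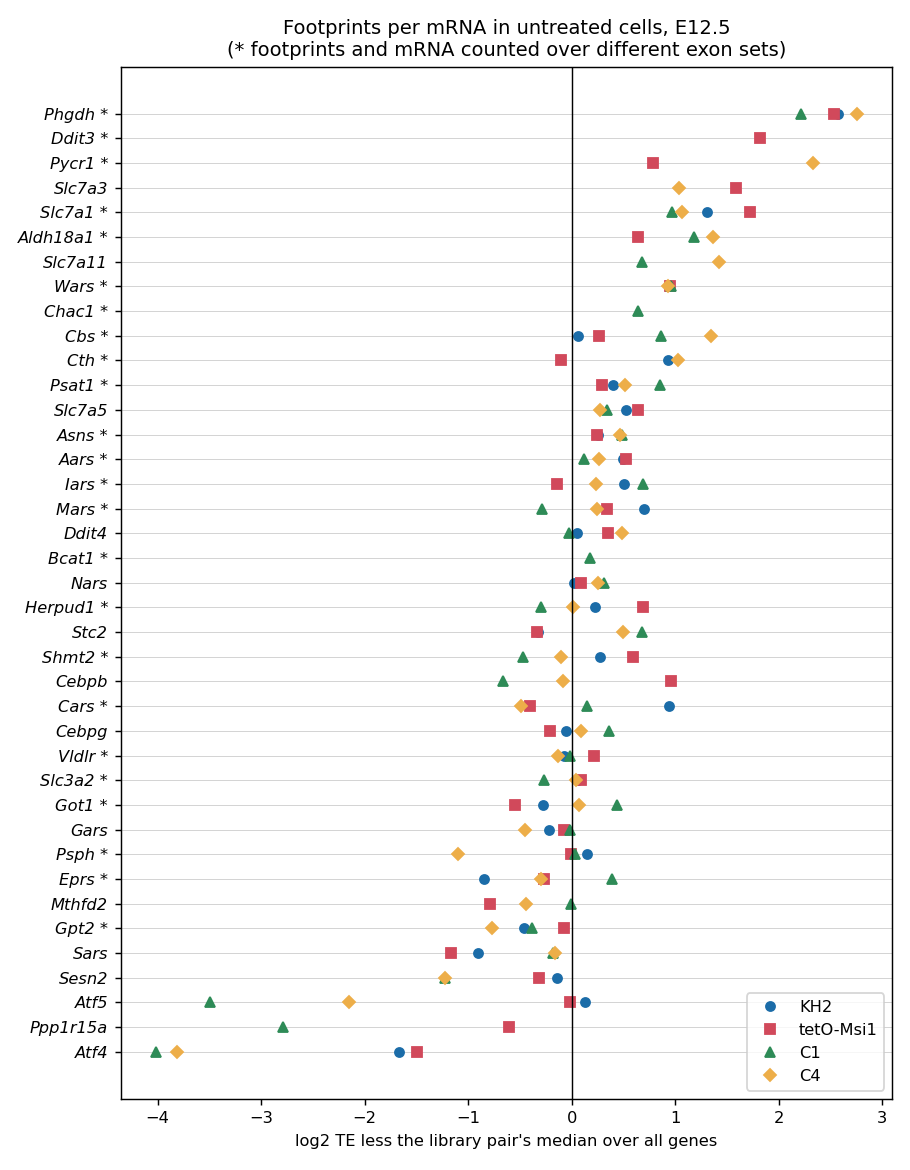
Centred log2 TE of each member (rows) in the untreated library pairs of 4 lines, for genes with more than 5 reads in both assays; 0 is the median gene of the pair, and an asterisk marks genes whose exon sets differ between the assays. Atf4 lies left of 0 in all 4 lines, further in C1 (-4.02) and C4 (-3.81), and Phgdh lies right of 0 in all 4.

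No change of TE was called among the members. In 1 model over both assays, edgeR called 0 of 24 members with Dox, when 0.0155% of 6442 genes were called, and 0 of 32 with 4-OHT, when 0% of 8255 genes were; 1 and 5 members had an unadjusted p under 0.05, as did 3.60% and 9.01% of all genes. DESeq2 called 0 members in either comparison. Atf4 had an estimate of 0.49 with Dox (SE 0.28, adjusted p = 1.00) and of 0.73 with 4-OHT (SE 0.26, adjusted p = 0.55), both upward and neither called, at 24 to 103 footprints a library. Ribo-Seq covered E12.5 alone, so footprints at E13.5, where the mRNAs were highest, were not measured here.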

How the data were processed

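Poly(A)-selected RNA-Seq and Ribo-Seq were made from mouse NSC cultures. The authors deposited, for each RNA-Seq gene, a read count, not normalized, with the length counted over, and for each Ribo-Seq gene a count over coding exons. The authors also deposited an RPKM, the count per kilobase of that length, scaled by a read number that is constant within a library. The submitters' processing notes name Bowtie, TopHat and mm9; the handling of strand and of reads with several matches was not given in the sources used here. For E13.5 untreated tetO-Msi1, the counts of the technical replicates were summed; they differed less (chi-square per degree of freedom 1.67) than lines did (10.9).

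Counts were tested with edgeR (4.0.16, R 4.3.3): TMM scaling, a minimum CPM of 1 in 2 or more libraries, a block for each line and stage (for stage, the line; for floxed against tetO lines, none), quasi-likelihood tests, and p-values adjusted by Benjamini-Hochberg over all genes tested, with a threshold of 0.05. TE was tested as the interaction of assay and treatment for genes with more than 5 reads in every library. DESeq2 (1.42.0), median-of-ratios scaling, no filter, no block and leaving out lines or pairs were alternatives. The comparison of Dox between stages, the E12.5 pairs alone and the addition of tetO-Msi2 to the stage test were chosen after the data were seen. Ratios of single libraries carry 95% intervals computed from the read numbers by the delta method, for counting error alone; at least 2-fold refers to scaled RPKM. The steps were tested on simulated data.

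The members and lists were chosen with earlier results of these data known. All 41 members could be named; at most 12 a comparison, by size among those called, have full statistics, and values by library go to these and to Atf4, Atf5, Ddit3, Nupr1, Trib3, Chac1, Asns, Psat1, Phgdh, Sesn2, Ddit4, Slc7a11, Slc7a3 and Vldlr. Genes of related lists are given by counts, with at most 3 named.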

Additional observations from a re-analysis of the deposited data

Results flagged for a closer look

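The log2 change with Dox in the E13.5 pair of tetO-Msi1 differed from that in the 3 E12.5 pairs for 18 members, by edgeR's quasi-likelihood test over 8 libraries (E13.5 less E12.5), which was chosen after these values were seen. The differences were -2.06 for Trib3, -1.89 for Nupr1, -1.59 for Chac1, -1.39 for Mthfd2, -1.38 for Asns, -1.36 for Slc7a3, -1.12 for Cars and -1.11 for Slc7a1. They were -0.98 for Sars, -0.91 for Mars, -0.91 for Aldh18a1, -0.89 for Iars, -0.88 for Nars and -0.79 for Vldlr, and -0.77 for Psat1, -0.77 for Atf4, -0.74 for Gars and -0.68 for Eprs. The E13.5 side is 1 pair of libraries with no spread of its own and without a Dox-treated KH2 library, so stage and culture cannot be told apart in it.

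With 4-OHT, 3 members moved in opposite directions in C1 and C4, with both 95% counting intervals clear of 0. Atf4 had a log2 ratio of 0.15 in C1 and -0.17 in C4, Cbs one of -0.17 and 0.36, and Slc7a3 one of 0.84 and -0.72, the last at levels of 0.76 to 1.63 scaled RPKM. The difference between the lines was not tested, since each has 1 library a state. The share of all genes that meet this rule was not counted, and the intervals leave out variation between libraries. The count is therefore not a result about the members.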

How the results depend on the processing

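The stage result kept its 39 members and directions with median-of-ratios scaling, DESeq2, no filter, no line block and either technical replicate, and 35 of the 39 (32 higher, 3 lower) when tetO-Msi2 was added to the E12.5 side. With tetO-Msi2 added, 39.8% of all genes were called, against 50.8% in the main fit. Sizes then dropped, as for Trib3 (7.21 to 5.06), Slc7a1 (5.20 to 3.57) and Mthfd2 (4.71 to 2.91). The result on Dox changed with the setting. It gave 0 members with DESeq2 and 0 without the pair block, 4 with no filter on low counts (Atf5 higher, and Slc7a1, Stc2 and Vldlr lower) and 7 with the tetO-Msi1 pairs of both stages alone (Atf5 higher, and Trib3, Chac1, Slc7a1, Stc2, Sars and Vldlr lower). Over all genes those fits called 1.57%, 0%, 3.61% and 3.60%, against 0.51% in the main fit. Leaving out 1 pair gave 0 to 3 members: 0 without the E12.5 pair of tetO-Msi1 or of tetO-Msi2, 2 without KH2 (Atf5 higher, Stc2 lower) and 3, all higher (Atf5, Mthfd2, Nupr1), without tetO-Msi1 of E13.5. In the same order, 0%, 0.066%, 2.88% and 0.451% of all genes were called. Msi induction beyond Dox gave 0 to 1 members when a pair was left out, the 1 being Atf5 in the E12.5 pairs only, when 0.167% of all genes were called. For 4-OHT, no filter gave 3 members, all higher (Mthfd2, Got1 and Atf5), of 41, when 7.64% of all genes were called. Floxed against tetO lines gave 10 to 32 members when a line was left out, with 10 without C1 and 32 without tetO-Msi2. The difference in Dox change between the stages gave 18 to 30 members when an E12.5 pair was left out. The 30 came without KH2, when 4.78% of all genes were called, against 0.814% in the main fit. The mean member median of TE was 0.047 with more than 20 reads in both assays, against 0.16 with more than 5. The cause of these shifts was not tested. Other summaries stayed on the same side of the threshold or within 1.5 times. Single pairs have no residual degrees of freedom, so each pair alone gave values and no count. Depth limits TE, with 24 to 103 Atf4 footprints in untreated libraries.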
